A study of Mus musculus with 15 samples.

Results

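Myelin of peripheral nerve was followed through 9 genes in the trigeminal ganglion (TG) of mice with an injured cornea: Mbp, Pmp22, Mag, Prx, Ncmap, Egr2, Pllp, Mal and Drp2. They were chosen by name, with earlier results of these data known. They were read as the rows of the count table whose gene identifiers carry these symbols, and each symbol matched 1 of the 55573 genes. All 9 passed the filter on low counts, which kept 16567 genes. The 15 samples were TG of 10-week-old male CD1 mice, taken from the right side after the centre of the right cornea had been marked with a 2-mm trephine and stripped of its epithelium and anterior stroma. The eye then received vehicle, RvD6-standard (the lipid mediator resolvin D6) or RvD6-isomer (a stereoisomer of it) 3 times a day for 12 days, with 5 mice in each group. The vehicle mice had the same injury and there was no uninjured group, so every comparison is between treatments of injured mice.

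Schwann cells wrap the larger axons of peripheral nerves in myelin, a stack of membranes held together by a small set of abundant proteins and rich in particular glycolipids. The transcription factors SOX10 and EGR2 turn on the genes of this sheath, and laminin and dystroglycan receptors anchor its outer surface to the basal lamina. The TG holds the cell bodies of the corneal sensory neurons together with their satellite glia and with bundles of myelinated and unmyelinated axons. Since whole ganglia were used, fewer myelinating cells and less RNA per cell cannot be told apart in these counts.

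Total counts per sample ranged from 4125962 to 9903396, with group medians of 9147139 (vehicle), 7235362 (RvD6-standard) and 6862705 (RvD6-isomer). The 11 markers of sensory neurons were present throughout and summed to 14149 to 16214 CPM (counts scaled to a common library size) in vehicle, 8117 to 15238 in RvD6-standard and 13035 to 17377 in RvD6-isomer. At an unadjusted p below 0.05, 5 of them were lower in RvD6-standard than in vehicle and 0 higher, and all 11 estimates between RvD6-isomer and RvD6-standard were positive. Of them Elavl4 alone passed the edgeR test in RvD6-isomer against vehicle, where it rose by 1.13 on the log2 scale (adjusted p = 0.0346). Blood and bone marrow markers summed to 1761 to 3791 CPM in vehicle, 4430 to 8861 in RvD6-standard and 742 to 9098 in RvD6-isomer, where sample 15 alone lay above 1781. Skeletal muscle markers reached 2385 CPM in RvD6-standard against at most 146 in vehicle and 26.9 in RvD6-isomer, and 6 of the 7 tested were lower in RvD6-isomer than in RvD6-standard by the edgeR test. Mitochondrial genes took 6.87 to 9.26% of counts in vehicle, 8.76 to 12.5% in RvD6-standard and 5.93 to 6.94% in RvD6-isomer. The part of these differences in the results below was not tested, apart from the settings named with them.

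Promoter sequences are shown for 4 members, chosen by their values in RvD6-isomer against vehicle. For Prx and Pllp all RvD6-isomer samples lay above all vehicle samples, and Ncmap and Mal had the lowest values relative to vehicle. Each sequence is the 250 bases before a RefSeq gene start on build GRCm38.p6, written 5′ to 3′ on the strand of the gene. Capitals mark matches, on either strand, to GGAATG (a core read by TEAD factors) or to GCGNGGGNG (read by EGR factors). The places are chr7:27499074-27499323 on the plus strand for Prx, and on the minus strand chr8:94696243-94696492 for Pllp, chr4:135398228-135398477 for Ncmap and chr2:127656696-127656945 for Mal.
Prx: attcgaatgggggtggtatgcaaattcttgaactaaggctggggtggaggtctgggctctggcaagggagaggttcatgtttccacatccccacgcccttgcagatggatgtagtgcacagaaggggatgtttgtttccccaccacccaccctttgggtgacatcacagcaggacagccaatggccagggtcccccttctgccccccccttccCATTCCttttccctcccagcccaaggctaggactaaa
Pllp: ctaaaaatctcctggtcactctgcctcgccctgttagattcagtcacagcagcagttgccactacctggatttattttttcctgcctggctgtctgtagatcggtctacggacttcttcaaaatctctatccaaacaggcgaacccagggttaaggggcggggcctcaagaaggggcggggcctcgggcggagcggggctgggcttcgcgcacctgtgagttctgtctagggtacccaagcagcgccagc
Ncmap: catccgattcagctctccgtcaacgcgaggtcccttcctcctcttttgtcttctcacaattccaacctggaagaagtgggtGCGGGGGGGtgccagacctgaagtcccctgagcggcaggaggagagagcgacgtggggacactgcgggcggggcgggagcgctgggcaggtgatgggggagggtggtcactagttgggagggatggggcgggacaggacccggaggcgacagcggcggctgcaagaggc
Mal: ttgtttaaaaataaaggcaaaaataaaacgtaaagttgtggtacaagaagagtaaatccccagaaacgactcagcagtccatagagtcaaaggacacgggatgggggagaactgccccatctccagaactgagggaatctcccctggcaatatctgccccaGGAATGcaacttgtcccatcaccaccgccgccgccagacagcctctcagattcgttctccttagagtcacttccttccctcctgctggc
The Prx and Mal windows hold 1 TEAD match each, the Ncmap window shown 1 EGR match and the Pllp window none. Another Ncmap window, at chr4:135385673-135385922, held no match. Windows of 7 of the 9 members were used. The TEAD letters occurred in a window of 5 of these 7 members (Egr2, Mag, Mal, Pmp22 and Prx) and in 12.6% of all 32851 windows. The EGR letters occurred in windows of Egr2 and Ncmap and in 10.5% of all windows. The SOX letters ACAAAG or ACAATG occurred only in Mag among these 7 and in 25.2% of all windows. The 7 members had 17 windows, since some have several start sites, so these counts per gene and the shares per window are not on the same base. Counted by window, the letters occurred in 5 of the 17 for TEAD, 2 for EGR and 2 for SOX. A match is a description of letters rather than of binding.

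On build GRCm38 the members lie as follows, as gene spans that hold all their exons. Prx (ENSMUSG00000053198.13) is at chr7:27499324-27520214, Drp2 (ENSMUSG00000000223.13) at chrX:134404551-134456573 and Egr2 (ENSMUSG00000037868.15) at chr10:67535475-67542188. Pmp22 (ENSMUSG00000018217.12) is at chr11:63128982-63159547 and Mbp (ENSMUSG00000041607.17) at chr18:82475146-82585637. These 5 are on the plus strand, and the following 4 on the minus strand: Mag (ENSMUSG00000036634.15) at chr7:30899176-30914873, Ncmap (ENSMUSG00000043924.16) at chr4:135369576-135398227, Pllp (ENSMUSG00000031775.5) at chr8:94674894-94696278 and Mal (ENSMUSG00000027375.14) at chr2:127633226-127656695. Counts were summed over all annotated exons of each gene. Exons overlapped those of other genes only for Pllp (described with its values) and for 5.38% of the exonic bases of Prx, which Gm15541 shares on the opposite strand.

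Per kilobase of exon, the members spanned a wide range of levels. In vehicle, Pmp22, a membrane protein of compact myelin, stood at 3762 ± 731 RPKM (SD, n = 5), rank 11 of the 16567 genes tested. Mbp, which binds the inner faces of the membrane and compacts them, stood at 852 ± 194 RPKM and rank 41. Ncmap, a membrane protein of noncompact myelin, followed at 353 ± 57.8 RPKM and Mal, a proteolipid of lipid-rich membranes, at 252 ± 51.0 RPKM.
Levels were far lower for the remaining members. Prx (periaxin, a scaffold of the outer Schwann cell membrane) stood at 44.4 ± 7.08 RPKM, and Drp2, which joins periaxin to dystroglycan, at 32.8 ± 2.38 RPKM. Mag, the adhesion protein that faces the axon, stood at 23.6 ± 6.79 RPKM. Pllp (plasmolipin, another myelin proteolipid) at 11.4 ± 1.59 RPKM and Egr2 at 10.3 ± 2.50 RPKM were lowest. The vehicle ranges of neighbours overlapped for Ncmap and Mal, Prx and Drp2, Drp2 and Mag, and Pllp and Egr2. Within a sample the order was nevertheless the same in 15 of 15 samples for every pair of neighbours except Pllp above Egr2, which held in 9 of 15. The RPKM of Pllp divides by all its exonic bases, including the 54.2% shared with Gm45767, where reads were not counted. Its level is therefore understated, and its place below Mag and beside Egr2 depends on the length used. The distances between other members depend on length too. Mean normalized counts in vehicle were 63519 for Pmp22 and 51732.5 for Mbp, which have 2354 and 8469 exonic bases. For Prx and Drp2 they were 1776 and 2014, the reverse of their order per kilobase.

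In RvD6-isomer against vehicle, the 9 genes did not move as a block: 6 estimates were positive and 3 negative, from a log2 fold change of 0.83 for Prx to -0.49 for Ncmap. No member passed the test (edgeR quasi-likelihood test over all genes, Benjamini-Hochberg adjusted p below 0.05), where 0.67% of the 16567 genes did, 87 higher and 24 lower. At an unadjusted p below 0.05 stood 6 of 9 members, 4 higher (Prx, Drp2, Egr2 and Pllp) and 2 lower (Ncmap and Mal), against 16% of all genes, 8.69% higher and 7.3% lower. The groups did not overlap for 2 of 9 (Prx and Pllp, both above vehicle), against 4.88% of all genes in either direction and 2.48% above. Because the members were chosen with earlier results of these data known, such shares cannot show an excess among them. The median log2 fold change was 0.23 over the members and 0.02 over all genes tested. DESeq2 with all samples called 2 members, Prx and Ncmap, where it called 2.8% of 32491 genes, and DESeq2 with the 2 groups alone called 5 (Drp2, Egr2, Ncmap, Pllp and Prx), where it called 3.22% of 30449 genes. Here and below, the DESeq2 shares include genes below the filter on low counts, which all members passed, so the bases are unlike.

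**Figure D1:**
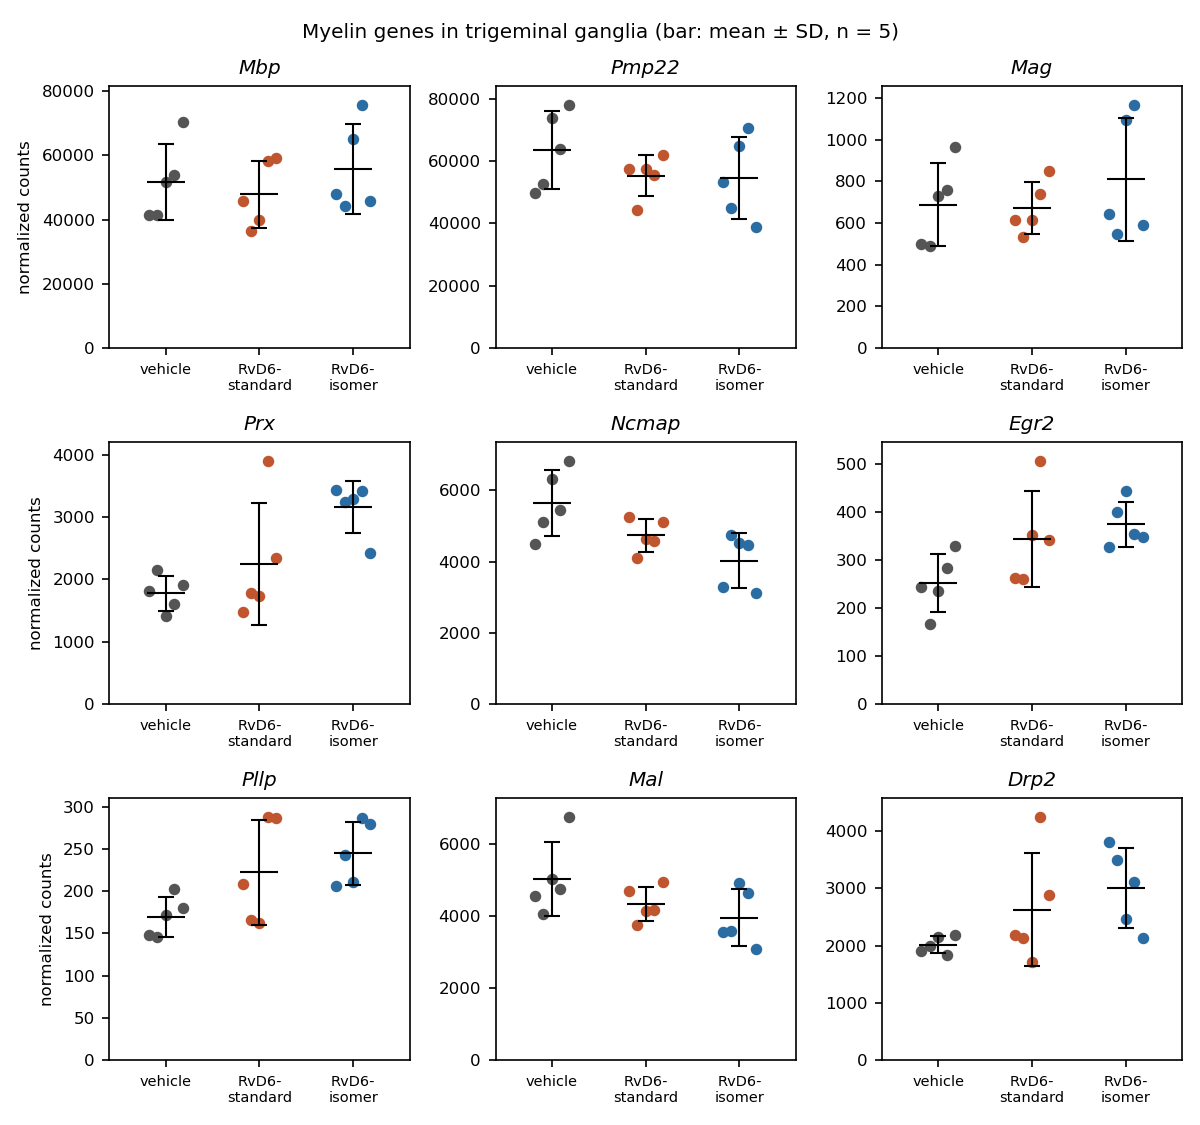
Normalized counts (vertical axes, from 0) of the 9 members in the 15 samples by group; points are samples and bars are the mean ± SD of 5 samples. All RvD6-isomer points lie above all vehicle points for Prx and Pllp, while for Mbp, Mag and Pmp22 the groups share most of their range.

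Prx gave the largest difference. It encodes the scaffold that, with DRP2 and dystroglycan, ties the outer Schwann cell membrane to the basal lamina, and its loss causes a demyelinating neuropathy. Normalized counts of Prx were 1805, 2147, 1417, 1600 and 1910 in vehicle samples 1 to 5. They were 3438, 3241, 3292, 3417 and 2424 in RvD6-isomer samples 11 to 15, and 1470, 1780, 1733, 3891 and 2334 in RvD6-standard samples 6 to 10. Every RvD6-isomer sample lay above every vehicle sample, while the RvD6-standard samples overlapped both groups, with sample 9 above all others. The log2 fold change against vehicle was 0.83 ± 0.21 (SE; 95% interval 0.38 to 1.28), a 1.77-fold difference with an edgeR adjusted p of 0.0706. Its adjusted p ranged from 6.54e-06 to 0.181 over 24 other settings and was below 0.05 in 6 of them, including DESeq2 with all samples (0.00656) and edgeR without RvD6-standard sample 9 (0.0134), a library of a group outside this comparison that enters through the shared estimate of spread.

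Drp2, on chromosome X, gave a smaller difference than Prx, close to that of Egr2. Its normalized counts were 1907, 1995, 2147, 1839 and 2184 in vehicle, a coefficient of variation of 7.40%. In RvD6-isomer they were 3807, 3494, 2467, 3117 and 2134, and in RvD6-standard 2183, 2128, 1711, 4240 and 2886. Of the RvD6-isomer samples, 4 lay above all vehicle samples and sample 15 lay within their range. RvD6-standard sample 9 was again the highest of all. The log2 fold change of RvD6-isomer against vehicle was 0.57 ± 0.21 (edgeR adjusted p = 0.178). Across the 15 samples Prx and Drp2 varied together (Pearson r = 0.84 of log2 CPM), a description over libraries that share their depth and normalization.

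Egr2 encodes the transcription factor that starts and maintains the myelin programme. Its normalized counts were 243, 166, 235, 284 and 330 in vehicle and 326, 399, 444, 354 and 348 in RvD6-isomer. They were 263, 260, 353, 506 and 341 in RvD6-standard. The vehicle and RvD6-isomer ranges met only between 326 and 330. The log2 fold change was 0.57 ± 0.21 for RvD6-isomer (edgeR adjusted p = 0.186) and 0.44 ± 0.21 for RvD6-standard (adjusted p = 0.366), both against the same 5 vehicle samples.

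Of the proteolipids, Pllp and Mal lay on opposite sides of vehicle. Pllp had normalized counts of 148, 146, 172, 203 and 180 in vehicle, and 207, 243, 211, 287 and 280 in RvD6-isomer. It had 209, 166, 163, 288 and 287 in RvD6-standard. All RvD6-isomer samples were above the vehicle samples, though the lowest of them exceeded the highest vehicle sample by few counts. Against vehicle, RvD6-isomer gave a log2 fold change of 0.53 ± 0.20 (edgeR adjusted p = 0.205). Of the 2083 exonic bases of Pllp, 54.2% overlap Gm45767 on the opposite strand. Reads that overlap several genes were not counted, so reads of either gene from the shared bases are missing. The values of Pllp rest on the remaining exon sequence.

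Mal had normalized counts of 4551, 4043, 5024, 4746 and 6725 in vehicle. It had 3548, 3587, 4900, 4633 and 3067 in RvD6-isomer and 4694, 3737, 4125, 4155 and 4934 in RvD6-standard. RvD6-isomer samples 11, 12 and 15 lay below all vehicle samples and the others lay among them. RvD6-isomer against vehicle gave a log2 fold change of -0.35 ± 0.15 (edgeR adjusted p = 0.272).

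Ncmap had the lowest estimate. Normalized counts were 4500, 5106, 6323, 5447 and 6815 in vehicle. They were 3291, 4757, 4527, 4465 and 3106 in RvD6-isomer and 5264, 4113, 4630, 4571 and 5119 in RvD6-standard. RvD6-isomer samples 11, 14 and 15 lay below all vehicle samples, the other pair stood above the lowest vehicle sample, and the RvD6-standard samples stood between 4113 and 5264. For RvD6-isomer against vehicle the log2 fold change was -0.49 ± 0.15 (95% interval -0.79 to -0.18), with an adjusted p of 0.106 by edgeR and 0.0255 by DESeq2 with all samples.

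**Figure D2:**
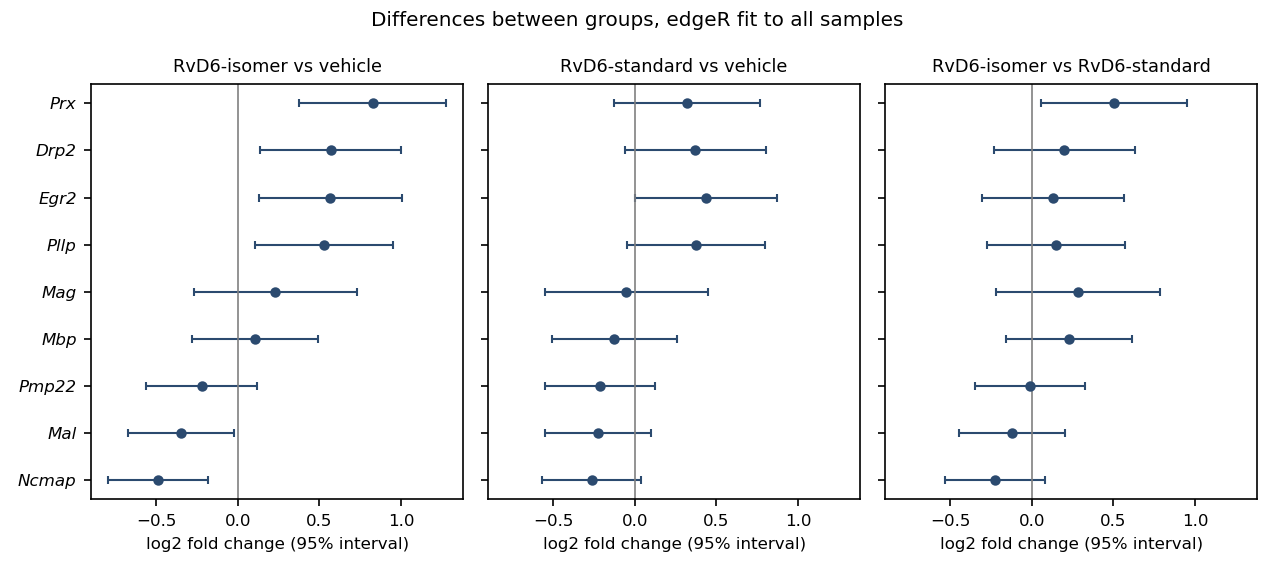
Log2 fold changes of the 9 members in the 3 comparisons (horizontal axes), with points for the edgeR estimate and bars for its 95% interval. Against vehicle, RvD6-isomer gave intervals above 0 for Prx, Drp2, Egr2 and Pllp and below 0 for Mal and Ncmap; the intervals are not adjusted for the number of genes.

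The remaining members, Pmp22, Mbp and Mag, gave intervals that included 0 in each comparison. Pmp22, whose gene dosage sets a common inherited neuropathy, had normalized counts of 49748, 52472, 73633, 63910 and 77832 in vehicle. They were 53356, 45078, 64950, 70649 and 38911 in RvD6-isomer and 57529, 44417, 57348, 55402 and 61902 in RvD6-standard. RvD6-isomer differed from vehicle by a log2 fold change of -0.22 ± 0.16 (edgeR adjusted p = 0.535). The lowest and the highest value came from RvD6-isomer and vehicle, and the groups overlapped widely.

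Mbp had normalized counts of 41371, 41583, 51718, 53746 and 70245 in vehicle. It had 47893, 44222, 65078, 75563 and 45928 in RvD6-isomer and 45685, 36410, 39935, 58264 and 59160 in RvD6-standard. Its log2 fold change in RvD6-isomer against vehicle was 0.10 ± 0.18 (95% interval -0.28 to 0.49; edgeR adjusted p = 0.833).
Mag had normalized counts of 499, 490, 731, 759 and 964 in vehicle. It had 643, 548, 1096, 1164 and 592 in RvD6-isomer and 614, 534, 616, 737 and 851 in RvD6-standard. Its log2 fold change was 0.23 ± 0.24 (edgeR adjusted p = 0.689). Vehicle sample 5 and RvD6-isomer samples 13 and 14 were the highest 3 of the 15 samples for both genes.

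Mbp and Mag are also made by oligodendrocytes, the myelinating cells of the central nervous system, and the TG root passes into the brainstem. A list of 11 oligodendrocyte markers, of which 9 passed the filter, summed to 226 to 479 CPM in vehicle, 199 to 361 in RvD6-standard and 214 to 495 in RvD6-isomer. Of the defining markers, Mobp ranged from 53.1 to 297 CPM and Mog from 4.05 to 37.6 CPM, while Opalin was at 0 in 8 samples and Olig2 at 0 in 4. Aspa, which is also on the list of myelin lipid synthesis genes read below, added 63.9 to 173 CPM to the sum. None of the 9 tested markers passed the test in any comparison. In RvD6-isomer, 8 of the 9 estimates were positive against vehicle (median log2 fold change 0.41) and 8 against RvD6-standard (median 0.35). In RvD6-standard against vehicle 5 were positive (median 0.0005). The 3 samples with the highest sums, RvD6-isomer sample 13 (495 CPM), vehicle sample 5 (479 CPM) and RvD6-isomer sample 14 (457 CPM), were the same 3 that led for Mbp and for Mag, and RvD6-standard sample 10 came next in all 3 rankings. Over the 15 samples the log2 of this sum had a Pearson r of 0.75 with log2 CPM of Mbp and 0.69 with Mag. For the other members r ran from 0.24 (Ncmap) to 0.50 (Mal). The part of these cells in the spread of Mbp, Mag or any other member was not tested.

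**Figure D3:**
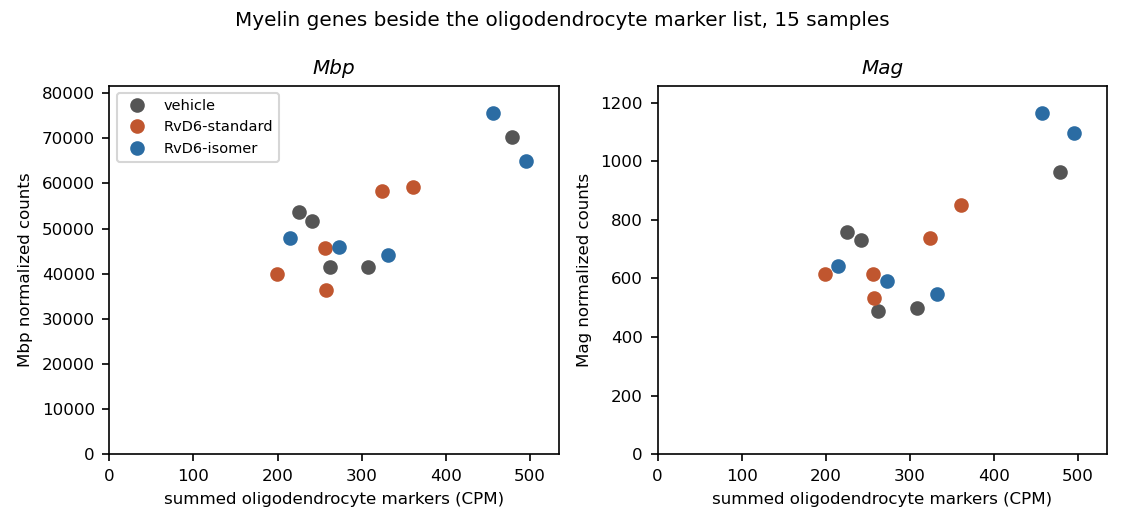
Normalized counts of Mbp (left) and Mag (right) against the summed CPM of 11 oligodendrocyte markers; each point is 1 of the 15 samples, coloured by group. The 3 samples with sums above 450 CPM, from vehicle and RvD6-isomer, have the highest counts of both genes.

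For RvD6-standard against vehicle, no member passed the edgeR test, and 0 of the 16567 genes did (0%), although 13.6% of genes had an unadjusted p below 0.05. Egr2 was the 1 member of 9 at an unadjusted p below 0.05, and DESeq2 called 0 members where it called 1.13% of genes. The groups overlapped for all 9, against 3.72% of all genes without overlap. Estimates ran from 0.44 for Egr2 to -0.26 for Ncmap, with a median of -0.05 against 0.02 over all genes. Prx stood at 0.32 ± 0.21 (edgeR adjusted p = 0.536), Drp2 at 0.37 ± 0.21 and Pllp at 0.38 ± 0.20. RvD6-standard sample 9, which also had the highest sum of skeletal muscle markers, weighed on these: without it the estimate was 0.02 for Prx and 0.12 for Drp2. Samples 9 and 10, the highest of the group for Prx and Drp2, had the lowest sums of sensory neuron markers of all 15 samples (8117 and 9248 CPM), whose part in these values was not tested.

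Between the stereoisomers, given in the same way and for the same time, 9 differences were estimated, 1 for each member, and none passed the edgeR test, where 0.235% of all genes did. DESeq2 called 0 members. Prx had the largest difference, 0.51 ± 0.21 higher in RvD6-isomer than in RvD6-standard on the log2 scale (95% interval 0.06 to 0.95; unadjusted p = 0.0288; edgeR adjusted p = 0.490), and was the 1 member of 9 at an unadjusted p below 0.05, against 8.82% of genes. The groups overlapped for all 9, against 1.74% of all genes without overlap. The intervals of the other members ran from -0.53 to 0.08 for Ncmap and from -0.22 to 0.79 for Mag, the widest. For Pmp22 the difference was -0.01 with an interval of -0.35 to 0.33, and its sign was not stable: it was 0.02 when no filter on low counts was used. A p above the threshold does not show that the 2 lipids act alike on these genes.

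Ratios between members within a library do not depend on its depth or scaling. They were formed after the values had been seen, so they are a description. Prx per Ncmap, in RPKM, was 0.0895 to 0.168 in vehicle, 0.111 to 0.340 in RvD6-standard and 0.272 to 0.417 in RvD6-isomer, so that every RvD6-isomer sample lay above every vehicle sample. Drp2 per Mal was 0.105 to 0.160 in vehicle, 0.135 to 0.331 in RvD6-standard and 0.164 to 0.348 in RvD6-isomer. Vehicle and RvD6-isomer were again without overlap but with a narrow gap, while RvD6-standard overlapped both. Prx and Drp2 have more exonic bases (5579 and 8553) than Ncmap and Mal (2227 and 2778). The slope of log2 CPM, less each gene's mean, on log2 gene length had a median of -0.079 in vehicle and 0.023 in RvD6-isomer. The part of this trend in the ratios was not tested. The groups overlapped for Prx per Mbp (0.0413 to 0.0784 in vehicle, 0.0687 to 0.111 in RvD6-isomer), for Prx per Drp2 (1.01 to 1.65 and 1.38 to 2.05) and for Ncmap per Mal (1.23 to 1.58 and 1.15 to 1.65). Mag per Mbp was 0.0245 to 0.0294 in vehicle, 0.0263 to 0.0321 in RvD6-standard and 0.0258 to 0.0350 in RvD6-isomer, with overlapping groups. Mag and Mbp kept close to a fixed proportion in all groups.

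Over all 15 samples the 36 pairs of members had Pearson correlations of log2 CPM from -0.48 (Prx and Ncmap) to 0.94 (Mbp and Mag), with a median of 0.44 and 25 above 0. High values also joined Pmp22 with Mal (0.88) and Ncmap with Mal (0.85). After the group means were removed, all 36 were above 0, from 0.03 to 0.95. All pairs share the same libraries and normalization, so these values are descriptive. Among 16390 other genes with a mean of at least 1 CPM, those most like the mean of the 9 members over the 15 samples were Rnf13 (r = 0.91), Gatm (r = 0.89), Bms1 (r = 0.85), Ndrg1 (r = 0.85) and Cab39l (r = 0.85). Ndrg1, whose loss causes a demyelinating neuropathy, is also on 1 of the lists described next.

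**Figure D4:**
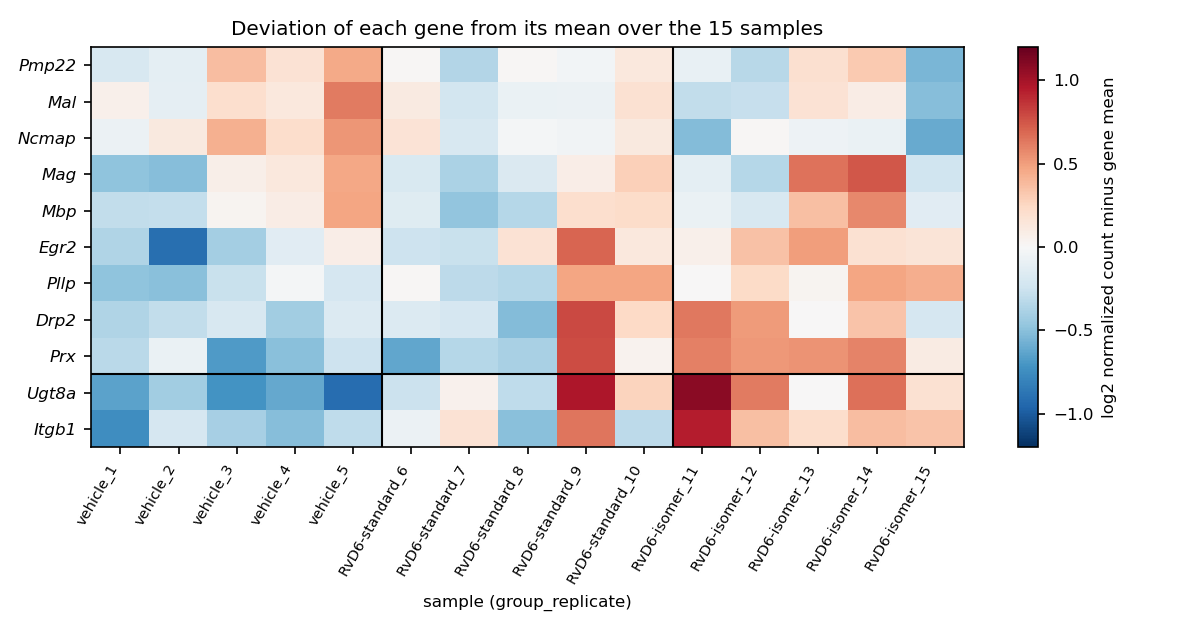
Deviation of log2 normalized counts from each gene's mean over the 15 samples (colour scale), for the 9 members and for Ugt8a and Itgb1 below the line; columns are samples, with vertical lines between groups. Vehicle samples are low and RvD6-isomer samples mostly high for Prx, Ugt8a and Itgb1, while RvD6-standard sample 9 is high from Egr2 down to Itgb1.

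Other genes of myelination were read from 8 lists with 82 genes, of which 78 were tested. Against vehicle, RvD6-isomer gave 2 genes that rose, Ugt8a and Itgb1, and 0 that fell, by the edgeR test, with 13 higher and 3 lower at an unadjusted p below 0.05. Over all genes 0.67% passed the test, and 8.69% were higher and 7.3% lower at an unadjusted p below 0.05. The lists too were chosen with earlier results of these data known, so these shares cannot show an excess. The lists' median log2 fold change was 0.17 against 0.02 over all genes. RvD6-standard against vehicle gave 0 by edgeR, with 7 higher and 0 lower at an unadjusted p below 0.05, where all genes gave 7.63% and 5.99%. RvD6-isomer against RvD6-standard gave 0, with 5 higher and 3 lower, where all genes gave 4.18% and 4.64%. DESeq2 with all samples called 7 of the list genes in RvD6-isomer against vehicle (Adam22, Cntn1, Gdap1, Itgb1, Mtmr2, Tspan2 and Ugt8a), where it called 2.8% of all genes, 1 in RvD6-standard against vehicle (Ugt8a) and 0 between the stereoisomers.

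Ugt8a encodes the enzyme that adds galactose to ceramide, the committed step to galactocerebroside of myelin. Its normalized counts were 1137, 1332, 1081, 1160 and 941 in vehicle. They were 3757, 2733, 1777, 2809 and 2014 in RvD6-isomer and 1482, 1843, 1439, 3478 and 2140 in RvD6-standard. All samples of both lipid groups lay above all vehicle samples. The log2 fold change was 1.21 ± 0.23 in RvD6-isomer (2.31-fold; edgeR adjusted p = 0.0262) and 0.86 ± 0.23 in RvD6-standard (edgeR adjusted p = 0.143; DESeq2 adjusted p = 0.0228). The difference between the lipids was 0.34 ± 0.23 (adjusted p = 0.714). Of the other 8 genes of myelin lipid synthesis none passed, with Gal3st1, which sulfates galactocerebroside, at 0.35 (adjusted p = 0.545), the ceramide synthase gene Cers2 at 0.20 (adjusted p = 0.698) and Degs1 at -0.10 (adjusted p = 0.807).

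Itgb1 encodes the beta chain of the laminin-binding integrins, which Schwann cells need to sort and wrap axons and which many other cells of the ganglion also carry. Its normalized counts were 650, 948, 826, 764 and 880 in vehicle. They were 2101, 1403, 1264, 1410 and 1385 in RvD6-isomer and 1038, 1226, 771, 1703 and 874 in RvD6-standard. All RvD6-isomer samples lay above all vehicle samples, and the RvD6-standard samples overlapped both groups. The log2 fold change was 0.89 ± 0.20 in RvD6-isomer (edgeR adjusted p = 0.0430) and 0.45 ± 0.20 in RvD6-standard (adjusted p = 0.325). Both calls depended on single libraries: with 1 of the 15 samples left out in turn, Ugt8a passed in 8 of 15 fits and Itgb1 in 4 of 15. Without RvD6-isomer sample 11 the adjusted p was 0.0965 for Ugt8a and 0.145 for Itgb1, and edgeR called 0 genes of the whole table, with 2033 at an unadjusted p below 0.05. The estimates moved less, from 1.04 to 1.31 and from 0.75 to 0.94.

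Apart from Ugt8a and Itgb1, no gene of the 8 lists passed the edgeR test in RvD6-isomer against vehicle. Among the 11 other sheath proteins, the tetraspanin gene Tspan2 stood at 0.92 ± 0.27 (adjusted p = 0.0979). The tetraspanin gene Cd9, the most abundant of the list per kilobase in vehicle, stood at -0.17 (adjusted p = 0.555), and the junction gene Cldn19 at -0.34 (adjusted p = 0.377).
Of the 9 tested genes of transcriptional control, Sox10, the master regulator of the lineage, stood at 0.75 ± 0.36 (adjusted p = 0.310), the POU factor gene Pou3f2 at 0.68 ± 0.36, Nab1 (a partner of EGR2) at -0.31 ± 0.28 and Yy1 at -0.19 ± 0.22. Of the 8 neuropathy genes outside the sheath, the phosphatase gene Mtmr2 stood at 0.88 ± 0.23 (adjusted p = 0.0706) and Gdap1, of the outer mitochondrial membrane, at 0.49 ± 0.17 (adjusted p = 0.146), while Ndrg1 stood at -0.04 and Litaf at -0.00. Of 10 axon-glia signals, the adhesion gene Cadm4 stood at -1.21 ± 0.37 (adjusted p = 0.117) and Adam22, which binds the secreted signal LGI4, at 0.52 ± 0.16 (adjusted p = 0.115), with the axonal ligand Nrg1 at 0.19 (adjusted p = 0.523). In the dystroglycan and laminin list, 13 genes, Sgcb, a sarcoglycan, stood at 0.64 ± 0.22 (adjusted p = 0.156) and Dag1, which encodes the dystroglycan that DRP2 binds, at 0.31 ± 0.20 (adjusted p = 0.467). Among 9 node and paranode genes the axonal adhesion gene Cntn1 stood at 0.51 ± 0.17 (adjusted p = 0.135), Epb41l3 at 0.32 ± 0.14 and Mpp6 at -0.39 ± 0.16. For Mpp6 all RvD6-isomer samples lay below all vehicle samples (edgeR adjusted p = 0.236) and below all RvD6-standard samples (edgeR adjusted p = 0.449). Among the 9 tested genes of immature and repair Schwann cells, the neurotrophin receptor gene Ngfr stood at 0.73 ± 0.28 (adjusted p = 0.205), the adhesion gene L1cam at 0.65 ± 0.27 (adjusted p = 0.245), Gap43 at -0.03 (adjusted p = 0.954) and Jun, the driver of the repair state, at -0.10 (adjusted p = 0.867).

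**Figure D5:**
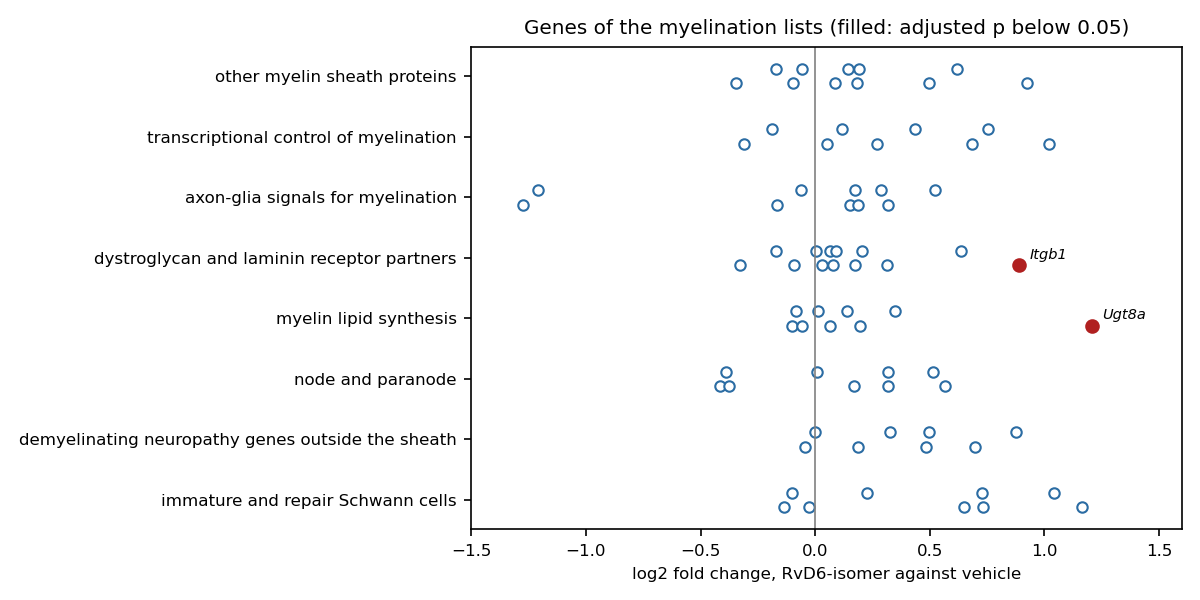
Log2 fold changes of RvD6-isomer against vehicle (horizontal axis) for the tested genes of 8 myelination lists (rows); filled points have an edgeR adjusted p below 0.05. Ugt8a, at 1.21, and Itgb1, at 0.89, are the filled points, and all other genes are open points.

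Other glia of the ganglion were read in the same way. Of 6 genes of non-myelinating Schwann cells, none passed by edgeR, and Gfap, an intermediate filament gene of these and of satellite cells, stood at 1.19 ± 0.34 (adjusted p = 0.0953) in RvD6-isomer against vehicle, with all RvD6-isomer samples above all vehicle samples. DESeq2 with all samples called Gfap higher in both lipid groups than in vehicle. S100b, the most abundant of the 6 per kilobase, stood at -0.26 ± 0.10 (adjusted p = 0.230) and Cdh19 at 0.07 (adjusted p = 0.910). The sum of 7 satellite glia markers was 6809 to 8287 CPM in vehicle, above the 4573 to 6610 CPM of RvD6-isomer and the 4971 to 6715 CPM of RvD6-standard without overlap, and none of the 7 passed the edgeR test in any comparison. Its members lay on both sides of vehicle, 3 of 7 positive in RvD6-isomer with a median log2 fold change of -0.10. Apoe, the most abundant of the 7 per kilobase, made up most of the sum. Its mean in vehicle was 48162 normalized counts, against 2504 for Fabp7 and 1484 for Glul. Apoe stood at -0.40 ± 0.12 (edgeR adjusted p = 0.104) with all RvD6-isomer samples below vehicle. Gja1, the gap junction gene of these cells, stood at 1.24 ± 0.38 (edgeR adjusted p = 0.112) with all RvD6-isomer samples above vehicle. DESeq2 with all samples called Apoe lower and Gja1 higher. The part of these differences in the values of the myelin genes was not tested.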

How the data were processed

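RNA of 15 TG was made into libraries with an adapted Smart-seq2 protocol, which reads polyadenylated RNA without strand. The authors aligned the reads to GRCm38 with Subread and deposited raw counts per gene, summed over exons with featureCounts and GENCODE release 22; the labels name Subread 1.6.5 and the file header featureCounts 1.5.0-p1. RPKM used the exonic gene lengths of the deposited table. Reads overlapping several genes or mapped to several places were not counted. GENCODE release 21 named 99.8% of identifiers; promoters came from RefSeq.

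Groups follow the treatment named in the sample labels. The p-values measure the spread between these samples, mouse and library preparation together. Counts were tested with edgeR 4.0.16 (R 4.3.3; quasi-likelihood, TMM, filterByExpr with a minimum count of 10 and total of 15, 15 samples in 1 fit, Benjamini-Hochberg over 16567 genes, threshold 0.05). Normalized counts were divided by size factors of DESeq2 1.42.0. Correlations used log2 CPM (prior count 2). The steps were tested on simulated data. Alternatives were DESeq2, fits of the 2 groups alone, RLE normalization, other filters, removal of each sample's trend on gene length (lowess, span 0.3) and each sample left out. Removal of a trend on transcript GC content and leaving out 2 muscle-rich libraries were chosen after seeing the data. All comparisons against vehicle share its 5 samples.

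The members and lists were chosen with earlier results of these data known. Genes named are all members and, from each list, every gene called, the 2 with the highest level in vehicle and the 2 with the smallest p in RvD6-isomer against vehicle, plus the 5 genes most like the members' mean. Mog, Opalin and Olig2 were named outside this rule, after their values were seen. Some genes of the lists are not reported here.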

Additional observations from a re-analysis of the deposited data

Results flagged for a closer look

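In 48 groups of 5 samples, 4 had 1 sample whose gap to the nearest other exceeded the critical share of the range (Dixon's 95% value), where chance gives about 1 in 20. For Prx, RvD6-isomer sample 15 had 2424 normalized counts and the other samples of its group 3241 to 3438; it still lay above all vehicle samples. The same sample had a summed level of blood and bone marrow markers of 9098 CPM against 742 to 1781 CPM in the rest of its group. For Itgb1, RvD6-isomer sample 11 had 2101 normalized counts against 1264 to 1410. Skeletal muscle markers summed to 146 CPM in vehicle sample 4 against 16.2 to 45.9 CPM in the other vehicle samples.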

How the results depend on the processing

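In RvD6-isomer against vehicle, edgeR called 0 of the 9 members, DESeq2 2 with all samples and 5 with the 2 groups alone, and edgeR 1 (Prx) with the 2 groups alone, with at least 10 counts in every sample, or without both muscle-rich RvD6-standard libraries, 8 and 9 (adjusted p = 0.0203, chosen after seeing the data). Leaving out 1 sample gave 0 to 1 called members, the 1 being Prx without RvD6-standard sample 9. Of the list genes, 2 were called by edgeR, 7 by DESeq2 in either form, 1 (Ugt8a) after removal of the length trend and 0 to 2 with 1 sample left out: 0 without any 1 of the 5 vehicle samples or RvD6-isomer sample 11 or 14, and 1 without RvD6-standard sample 6 or 7 or RvD6-isomer sample 13. In RvD6-standard against vehicle, DESeq2 in either form called 1 list gene (Ugt8a) where edgeR called 0. Over all genes, RvD6-isomer against vehicle gave 111 calls by edgeR, 909 and 980 by DESeq2, 315 with at least 10 counts in every sample, 63 after removal of the length trend and 0 to 229 with 1 sample left out (6 to 13 without any 1 vehicle sample, 0, 9 and 68 without RvD6-isomer samples 11, 14 and 13, 168 without RvD6-isomer sample 12 and 229 without RvD6-standard sample 9). RvD6-standard against vehicle gave 0 by edgeR, 367 and 663 by DESeq2, 38 with 2 groups alone, 56 without a filter, 24 with 10 counts in every sample and 0 to 51 with 1 sample left out (51 without RvD6-isomer sample 15, 17 without RvD6-standard sample 7 and 1 without vehicle sample 2). Between the lipids, 39 became 185 and 182 by DESeq2, 17 with 2 groups alone, 59 without a filter, 23 with 10 counts in every sample, 2 without the muscle-rich libraries and 2 to 156 with 1 sample left out (2 without RvD6-isomer sample 11, 13 or 14, 13 without RvD6-standard sample 8 or 9, 25 without RvD6-standard sample 10 and 156 without RvD6-isomer sample 15). The cause was not tested.

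Estimates near 0 changed sign. Mbp in RvD6-isomer against vehicle was -0.051 after removal of the length trend and ranged from -0.032 to 0.25 with 1 sample left out (-0.032 without RvD6-isomer sample 14). In RvD6-standard against vehicle, leaving out 1 sample gave -0.21 to 0.01 for Mbp, the 0.01 (0.0081) without vehicle sample 5, and -0.16 to 0.10 for Mag, with 0.10 without vehicle sample 5 and 0.02 without RvD6-standard sample 7. Pmp22 between the lipids was 0.0055 with 2 groups alone, 0.022 without a filter, 0.0076 after removal of the GC trend, 0.021 without the muscle-rich libraries and -0.12 to 0.091 with 1 sample left out. Of 792 log2 fold changes under other settings, 745 kept their sign and side of the threshold, 15 changed sign, 13 passed it only there and 19 no longer passed. After removal of the length trend the adjusted p was 0.112 for Prx and 0.0601 for Itgb1; each sample's slope of log2 CPM on log2 length was -0.0079 to 0.141 in RvD6-isomer and -0.107 to 0.0048 in vehicle. Scaling by TMM left all 27 group means of members within 1 SD. TPM values are larger than RPKM by a factor set by each library, so ratios within a library are the same.

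No paired analysis was possible because the labels number the samples without repeats, so no 2 groups share a number. A GC trend from the genome was not run, since no genome was given. The lowest raw count of a member was 116 (Pllp), and counting error was not separated from the spread between samples.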
